A study of Mus musculus with 13 samples.

Results

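Within each of the 3 groups of tumours grown in Nlrx1-/- hosts, the array numbered replicate 1 was set against the array numbered replicate 2. The 6 arrays were taken from 12 tumour arrays, among 13 samples in the labels, of which the manufacturer's control column held no values. They were put together because of measured values. All 3 replicate 1 arrays had high signals for Glycam1, Ccl21a, Cxcl13 and Cr2, the lymph node markers used here, and the 3 replicate 2 arrays did not. Every difference between these arrays is therefore given as a description with no test of its own, and the p-values of the fit across all features serve only for counting. The labels give no property other than the number that the replicate 1 arrays of different lines share.

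The series measured gene expression with Clariom S mouse arrays in pooled RNA from flash-frozen 4T1 mammary carcinomas. Each tumour was grown in 1 mammary fat pad of a BALB/c mouse that was WT or Nlrx1-/-. The injected cells were parental, untransduced 4T1, the 4T1OE line made to overexpress NLRX1, or its overexpression control line 4T1OE-CTL, with 2 arrays for each of the 6 combinations. All 6 compared arrays share the Nlrx1-/- host, whereas the injected cells keep their own Nlrx1, and the 6 WT arrays give levels that the choice did not use. Whether each transduced line is a single clone, which promoter drives the overexpression, the age and sex of the mice and how many tumours went into a pool are details that the sources used here leave out. The spread between arrays is a spread between pools.

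High endothelial venules are the vessels through which lymphocytes enter lymph nodes. Stromal cells of the T zone make CCL21 and CCL19, which guide cells bearing CCR7, and stromal cells of the follicle make CXCL13, which guides B cells bearing CXCR5. Follicular dendritic cells hold antigen on complement receptors such as the product of Cr2 and present it to B cells in germinal centres. Mammary fat pads can hold lymph nodes, and lymphoid aggregates with the same vessels and stroma can form within tumours. In pooled tumour RNA these sources cannot be told apart, nor can more cells of a type and more RNA per cell.

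The start regions of the genes that carry the comparison are shown because all 4 markers are tissue-restricted and the CCL21 genes are close copies. Each line gives the 120 bases directly before the RefSeq start of the gene, 5′ to 3′ on the gene's strand, from RefSeq on GRCm38.p6, with ATAAATA in capitals, a string that resembles the core promoter element near many starts.
Glycam1, chr15:103565082-103565201, minus strand: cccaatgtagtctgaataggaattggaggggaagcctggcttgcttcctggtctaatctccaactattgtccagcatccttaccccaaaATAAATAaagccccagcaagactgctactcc
Cxcl13, chr5:95956819-95956938, plus strand: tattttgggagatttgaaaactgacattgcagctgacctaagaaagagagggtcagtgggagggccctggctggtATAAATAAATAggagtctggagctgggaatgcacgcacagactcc
Ccl21a, chr4:42773992-42774111, minus strand: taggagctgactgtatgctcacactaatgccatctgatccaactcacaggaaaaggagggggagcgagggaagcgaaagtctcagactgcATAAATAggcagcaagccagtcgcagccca
Gm10591, chr4:42612003-42612122, plus strand: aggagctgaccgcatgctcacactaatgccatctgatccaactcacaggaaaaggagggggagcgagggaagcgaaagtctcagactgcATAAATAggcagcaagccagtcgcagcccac
Cr2, chr1:195176720-195176839, minus strand: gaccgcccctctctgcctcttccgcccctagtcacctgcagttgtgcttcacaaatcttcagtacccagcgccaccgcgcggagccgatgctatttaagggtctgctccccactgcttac
The string was picked after the letters had been read. It was searched over 250 bases before the start on both strands and occurred on either strand in 1699 of 32851 such windows (5.17%). Cxcl13 held 2 overlapping matches and Cr2 none. A match describes the letters and no more. Over 299 shared positions the start regions of Ccl21a and Gm10591 were identical at 296, and those of Gm10591 and Gm13304 were identical at 300 of 300. RefSeq gives Ccl21b and Ccl21c among the synonyms of Gm10591 and Gm13304, so signals of the Ccl21 features cannot be assigned to 1 copy.

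The arrays differed in quality. The Nlrx1-/- parental replicate 1 array was the sample that the array service advised leaving out. Its median correlation with the other arrays was 0.896 across features, whereas that of each other array was at least 0.958. Its values had an SD of 2.53, against 2.78 to 3.12 on the others, and its negative control median was 5.96, against 5.24 to 5.68. Its high and low signals thus lay closer together than on any other array, and results are given without it where they move. No pair among the 66 pairs of tumour arrays was identical. Nlrx1 itself, the gene deleted in the hosts, read 6.75, 9.93 and 6.39 on the replicate 1 arrays of the parental, 4T1OE and 4T1OE-CTL lines. It read 6.60, 10.67 and 5.99 on the replicate 2 arrays in the same order. High Nlrx1 therefore followed the overexpressing line on both sides, and the mean difference was -0.06 ± 0.596 (SD over 3 lines). All array values here are log2 expression values, all differences are replicate 1 minus replicate 2, and values are listed in the order parental, 4T1OE, 4T1OE-CTL.

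The 4 marker genes were high on all 3 replicate 1 arrays and near the negative controls on the replicate 2 arrays. Glycam1, a mucin-like protein made by high endothelial venules, read 13.16, 12.75 and 12.93 on the replicate 1 arrays. On the replicate 2 arrays it read 4.10, 4.33 and 5.55, and WT arrays lay between 3.71 and 4.98. The replicate 2 values lay at or under the negative control medians, so the difference was at least 7.52. Ccl21a, the T zone chemokine, read 12.10, 12.32 and 12.52 against 5.58, 5.56 and 6.69, with WT arrays from 6.02 to 6.99, a difference of 6.37 ± 0.480. Cxcl13, the follicle chemokine, read 12.83, 14.04 and 15.18 against 5.86, 5.39 and 6.98. WT arrays lay between 4.61 and 7.82, and the difference was 7.94 ± 0.872. Cr2 read 7.84, 8.39 and 9.65 against 3.60, 3.70 and 3.43, with WT arrays from 3.25 to 5.32, a difference of at least 3.20. For each of the 4 genes the lowest replicate 1 array lay above every one of the 9 other arrays, as did 1.23% of all features. The arrays were chosen by these 4 genes, so nothing is read from that separation. The parental replicate 1 array, narrow in its range, was the highest of the 3 for Glycam1 and the lowest for Ccl21a, Cxcl13 and Cr2. Whether the Cr2 signal came from stroma or from B cells was not tested. Nor was it tested whether the Glycam1 signal came from vessels or from mammary epithelium. Of 12 mammary secretory epithelium genes, 2 were higher in all 3 lines, beside 10.2% of all features, and 0 lower, beside 11.4%. Their medians were 0.91, -0.04 and 0.05 in the 3 lines.

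**Figure D1:**
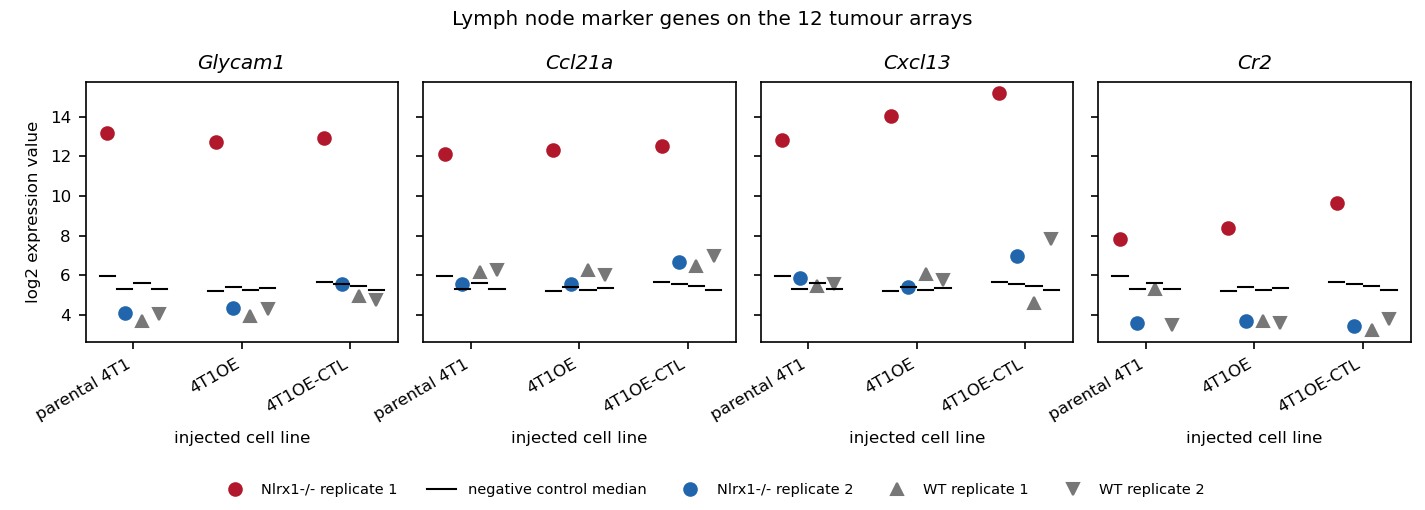
Log2 expression values of the marker genes (vertical axis) on the 12 tumour arrays, grouped by host and injected line, each point 1 array, with black bars at each array's negative control median. The 3 Nlrx1-/- replicate 1 arrays stand apart, with Glycam1 between 12.75 and 13.16 against 5.55 or less on the others.

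Other features of the CCL21 family behaved alike. The feature named Ccl21c read 12.25, 13.11 and 13.04 against 4.61, 4.06 and 4.54, a difference of at least 7.37. The feature named Ccl21b read 12.35, 12.69 and 13.01 against 4.90, 4.22 and 4.72, a difference of at least 7.26. A feature named Gm10591 read 14.15, 14.99 and 14.97 against 4.47, 4.51 and 3.97 (at least 9.28), and Gm13304 read 13.30, 14.21 and 14.38 against 4.51, 4.53 and 4.40 (at least 8.54). Because of the shared sequence these features are not independent measurements.

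In the fit of all 22206 features with cell line as covariate (limma, Benjamini-Hochberg adjusted p under 0.05), 14 features were higher on the replicate 1 arrays (0.0630%) and 0 were lower (0%), while 560 had an unadjusted p under 0.05. The arrays had been chosen on this contrast, so nothing is read from the share. The 14 comprised 7 features named Ccl21a, Ccl21b, Ccl21c, Gm10591 or Gm13304, together with Glycam1, Cxcl13, the antibody-joining chain gene Jchain, the T cell gene Ms4a4b and 3 without a symbol. They gave 12 distinct sets of values. Without the parental pair the same fit gave 273 higher and 10 lower features, and without the 4T1OE pair 44 and 7.

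A size rule asked for a difference of 1 or more in the same direction in each line. It held for 162 features that were higher on the replicate 1 arrays (0.730%) and 3 that were lower (0.0135%). Of the 162, 137 genes had a symbol, and 60 were in the gene lists used here, 59 of them in lymphoid lists. The share of all measured genes that these lists cover is not given here. Of the 162 features, 127 lay above all 9 other arrays, beside 1.23% of all features. The arrays were chosen on lymph node markers and the lists with earlier results known, so nothing is read from these counts. On 61 of the features all 3 replicate 2 arrays lay under the negative control median. The median difference of the 162 was 2.35, made up of 2.02 in the parental line, 1.92 in the 4T1OE line and 2.80 in the 4T1OE-CTL line, and the 4T1OE-CTL pair was the largest for 90. The threshold left neighbours on either side, here picked for their nearness to it after their values had been seen. Just inside were Synpo2 (1.47, 1.41 and 1.01), Rbm38 (1.57, 1.01 and 1.29) and Izumo1r (1.91, 1.22 and 1.01). Just outside were Ltb (1.00, 2.78 and 2.97, under 1 before rounding), Ripor2 (0.99, 1.44 and 3.42) and Rasal3 (0.99, 1.79 and 3.42). Without the parental pair 343 features were higher and 18 lower by this rule, and without the 4T1OE pair 300 and 269. Fewer pairs were asked here, so these counts could not fall. How far the lower count rose depended on which pair was left out.

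The pairs were unequal in how far they differed at all. In Nlrx1-/- tumours 9102 features differed by 1 or more between the parental arrays, 696 between the 4T1OE arrays and 3322 between the 4T1OE-CTL arrays. The SDs of the differences were 1.37, 0.50 and 0.80. In WT tumours the same counts were 2803, 469 and 2413, with SDs of 0.71, 0.45 and 0.65. The parental pair, which holds the array advised for exclusion, thus had the widest spread. Across features, which are not independent, the differences of the parental pair correlated with those of the 4T1OE pair at r = 0.024 and with those of the 4T1OE-CTL pair at r = -0.116. The differences of the 4T1OE and 4T1OE-CTL pairs correlated at r = 0.371. Across features the parental pair thus shared little direction with the others, while the 4T1OE and 4T1OE-CTL pairs shared more. The arrays were chosen on lymph node markers, so nothing is read from the shared direction of lymphoid genes.

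**Figure D2:**
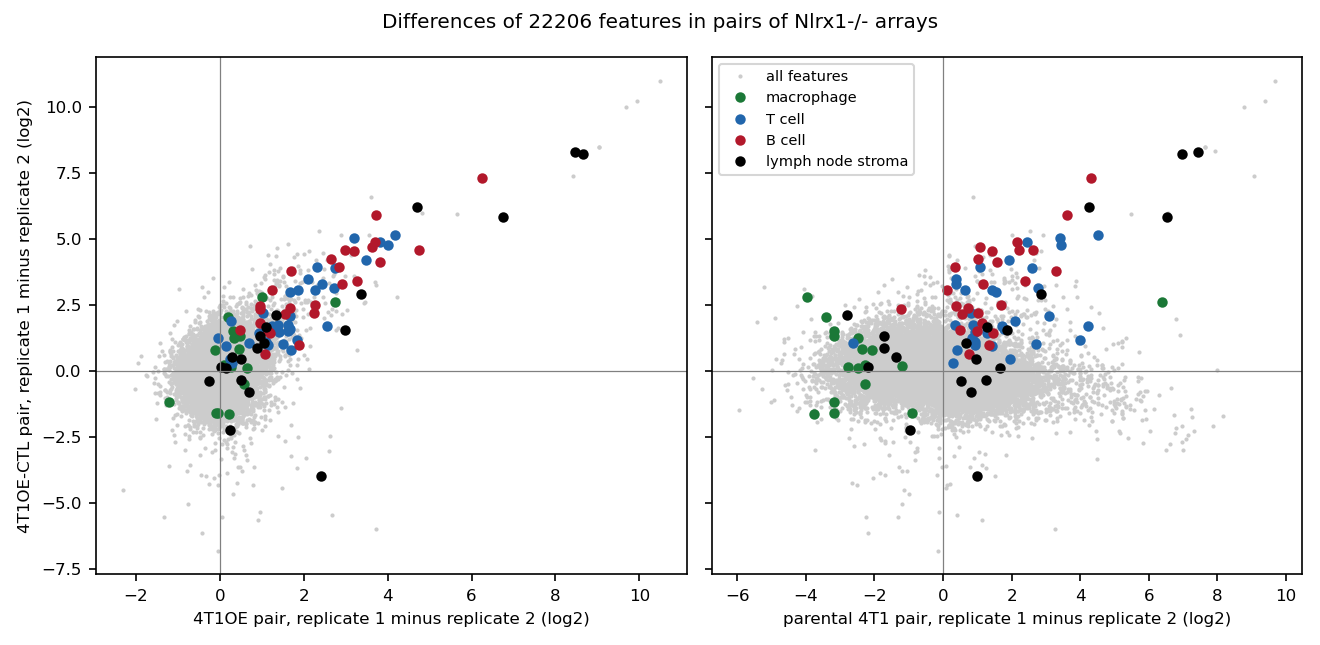
Difference between replicate 1 and replicate 2 arrays (log2) of each feature in the 4T1OE-CTL pair (vertical axis) against the 4T1OE pair and against the parental pair (horizontal axes), with the genes of 4 lists in colour. Over all features r is 0.371 and -0.116. Most B cell and T cell genes and some stroma genes lie above 0 in each pair. Macrophage genes fall mostly below 0 in the parental pair.

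Lymph node stroma and follicle genes beyond the markers were partly higher. The list held 20 measured genes, of which 3 were markers that the arrays were chosen by. Ccl21b is also in the list, and its signal cannot be separated from that of the marker Ccl21a. Of the 17 genes other than the 3 markers, 7 were higher in all 3 lines, Ccl21b among them, against 10.2% of all features. Of the same 17, 0 were lower, against 11.4%. Their median difference was 0.23, or 0.00 with bounds in place of differences against near-background values, beside -0.02 over all features. Ccl19, a T zone chemokine, read 6.42, 6.55 and 6.60 against 3.57, 3.18 and 3.70, a difference of at least 1.10. Cxcl12, a chemokine of stromal cells, read 8.45, 8.61 and 8.28 against 6.59, 5.62 and 6.74, with WT arrays from 5.57 to 6.80. Fcer2a, the low-affinity IgE receptor gene of B cells and follicular dendritic cells, read 8.39, 8.39 and 9.63 against 7.12, 7.30 and 7.98. Each of these 3 genes was higher on every replicate 1 array than on every other array. Madcam1, an adhesion ligand of high endothelial venules and follicular dendritic cells, and the B cell survival factor gene Tnfsf13b lay under the negative control median on both sides, and neither has a size. Clu, made by follicular dendritic cells and by many other cells, read 14.55, 16.43 and 15.61 against 17.34, 15.09 and 13.47, so its direction differed among lines.

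The high endothelial venule list rested mainly on 1 gene, the marker Glycam1. Of its 11 other measured genes, 3 were higher in all 3 lines, beside 10.2% of all features, and 0 lower, beside 11.4%. The 3 were Fut7, Ackr1 and Sele. By 1 or more in each line 0 were higher, beside 0.730%. Fut7, a fucosyltransferase that modifies the mucins of these vessels, read 6.17, 5.23 and 5.15 against 4.58, 4.60 and 4.68, a difference of at least 0.09. Chst4, a sulphotransferase that acts on the same mucins, and Ackr1, Sele and Fut4 lay under the negative control median on both sides. The Ackr1 and Sele differences thus have no size, and nothing is read from the count that holds them. In the lymphatic endothelium list, 3 of 10 genes other than the marker Ccl21a were higher in all 3 lines, 0 of them by 1 or more in each, and 1 was lower. Lyve1, a hyaluronan receptor of lymphatic vessels, read 7.27, 7.13 and 6.35 against 5.64, 5.46 and 6.13. Prox1, the lymphatic master regulator, lay under the negative control median on both sides.

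Receptors that position lymphocytes varied more among lines. In the homing list 6 of 10 genes were higher in all 3 lines, beside 10.2% of all features. The median difference was 1.20, with 0.28 in the parental line, 1.18 in the 4T1OE line and 1.98 in the 4T1OE-CTL line. Il7r, the interleukin 7 receptor of naive lymphocytes, read 9.56, 8.44 and 9.85 against 6.83, 6.86 and 8.0, but a WT array reached 9.03. Cxcr5, the receptor for CXCL13, read 5.64, 6.80 and 7.18 against 4.94, 4.63 and 4.59, a difference of at least 1.11. Ccr7, the receptor for CCL21 and CCL19, read 10.03, 7.29 and 7.85 against 7.14, 6.92 and 7.52. The parental pair alone accounted for most of the Ccr7 mean of 1.20, which was 0.35 without it. S1pr1, which lets lymphocytes leave nodes, and Gpr183, an oxysterol receptor that positions B cells, were higher in the 4T1OE and 4T1OE-CTL pairs but not in the parental pair, with differences of -0.16, 1.96 and 3.38 and of -0.45, 1.81 and 2.32.

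Nearly the whole B cell list was higher. Of 26 genes measured, 25 were higher in all 3 lines, beside 10.2% of all features, and 0 lower, beside 11.4%. By 1 or more in each line 15 were higher, beside 0.730%, and 18 lay above all 9 other arrays, beside 1.23%. The median difference was 2.26, or 1.71 with bounds, and it was 1.15, 2.26 and 3.18 in the parental, 4T1OE and 4T1OE-CTL lines. Set against the median of WT arrays, the list stood at 1.05, 2.06 and 3.00 on the replicate 1 arrays, at -0.12 to -0.03 on the replicate 2 arrays and at -0.06 to 0.08 on the WT arrays. Cd79a, a signalling chain of the B cell receptor, read 8.01, 9.72 and 11.23 against 3.69, 3.46 and 3.92, with WT arrays from 3.48 to 3.95. The difference was at least 4.23, and for its partner chain Cd79b it was at least 2.53. Ms4a1, which encodes CD20, read 6.25, 7.36 and 8.15 against 3.87, 4.10 and 4.75, a difference of at least 1.83. Pax5, the factor that keeps B cell identity, read 6.03, 7.18 and 8.62 against 4.60, 3.98 and 4.10, a difference of at least 1.85. In each of these genes the 3 replicate 1 arrays kept the order parental lowest and 4T1OE-CTL highest.

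Regulators and receptors of B cells followed. Bank1, a scaffold of B cell receptor signalling, read 9.89, 10.76 and 11.66 against 6.27, 7.04 and 5.74, a difference of 4.42 ± 1.30. Cd37, a tetraspanin of B cells, read 8.34, 10.59 and 10.94 against 6.13, 5.85 and 6.36, a difference of 3.85 ± 1.42. Tnfrsf13c, the BAFF receptor gene, read 7.94, 8.50 and 10.18 against 5.31, 5.53 and 5.62, a difference of 3.39 ± 1.03. Cd22, an inhibitory co-receptor, differed among lines: it read 5.56, 8.38 and 9.74 against 4.49, 4.76 and 5.03, so its parental value lay under that array's own negative control median. The difference was at least 2.47. Btk, a kinase shared with myeloid cells, was the exception to the common direction, at -1.24, 0.95 and 2.36.

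**Figure D3:**
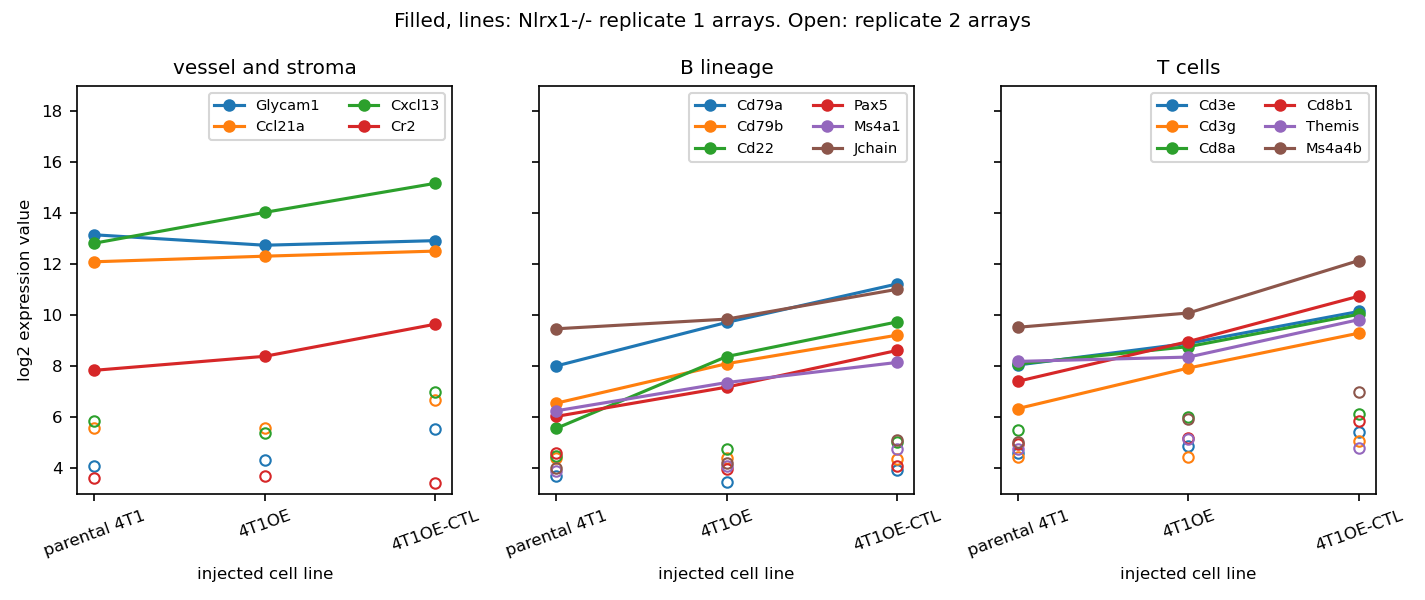
Log2 expression values of the 4 markers (panel titled vessel and stroma), B lineage and T cell genes (vertical axis) by injected line. Filled points and lines are the replicate 1 arrays and open points the replicate 2 arrays. On the replicate 1 arrays Cxcl13 (12.83 to 15.18), Cr2 (7.84 to 9.65) and Cd79a (8.01 to 11.23) are lowest in the parental line and highest in the 4T1OE-CTL line, while Glycam1 and Ccl21a vary by less.

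Germinal centre and plasma cell genes were seen in part. Of 11 germinal centre genes, 4 were higher in all 3 lines, beside 10.2% of all features, and 3 by 1 or more in each, beside 0.730%. Rgs13, a regulator of G protein signalling in germinal centre B cells, read 6.3, 7.26 and 6.88 against 5.12, 4.45 and 5.26, a difference of at least 1.39. Gcsam, a germinal centre adaptor, differed by at least 0.92 and Gm8369 by at least 1.53. Bcl6, the master regulator of the germinal centre, which other cells also make, read 6.42, 8.53 and 7.21 against 8.59, 7.34 and 7.18, so the sides overlapped. Of 13 plasma cell genes, 5 were higher in all 3 lines and 1 lower, beside 10.2% and 11.4% of all features. Jchain read 9.47, 9.85 and 11.02 against 3.99, 4.19 and 5.10, with WT arrays from 3.51 to 4.19, a difference of at least 4.69. Mzb1, a chaperone of antibody-secreting cells, differed by at least 0.22, and Sdc1, which encodes CD138 and is also an epithelial gene, read 12.67, 13.06 and 11.85 against 14.10, 12.82 and 13.00.

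T cell genes were higher to a similar degree in each line. Of 34 measured genes, 32 were higher in all 3 lines, beside 10.2% of all features, and 0 lower, beside 11.4%. By 1 or more in each line 17 were higher, beside 0.730%, and 25 lay above all 9 other arrays, beside 1.23%. The median difference was 1.71, or 1.59 with bounds, with 1.43, 1.67 and 1.74 in the 3 lines. Cd3e, an invariant chain of the T cell receptor complex, read 8.05, 8.90 and 10.15 against 4.60, 4.88 and 5.40, a difference of at least 3.61. Cd4, the helper cell co-receptor, read 10.96, 9.56 and 10.12 against 7.86, 7.89 and 8.05, with WT arrays from 7.57 to 8.86. Cd8b1, the cytotoxic cell co-receptor chain, read 7.41, 8.97 and 10.75 against 4.95, 5.17 and 5.87, but WT arrays reached 7.67, above its parental value. Cd4 was highest in the parental pool and Cd8b1 in the 4T1OE-CTL pool.

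Genes of naive and signalling T cells added to this. Ms4a4b read 9.53, 10.09 and 12.15 against 5.01, 5.91 and 7.0, a difference of 4.61 ± 0.491, with WT arrays from 5.25 to 9.52. Themis, needed for T cell selection, read 8.19, 8.36 and 9.83 against 4.77, 5.16 and 4.78, a difference of at least 3.37. Lef1, a factor of naive T cells, read 7.01, 6.70 and 8.05 against 5.45, 5.03 and 5.06, above all WT arrays, which reached 5.41. Icos, a co-stimulatory receptor, read 9.89, 9.34 and 9.38 against 5.68, 6.79 and 7.68. The exceptions were Thy1 and Gimap7. Thy1, which fibroblasts also express, read 5.92, 8.58 and 9.31 against 8.56, 7.89 and 8.26. Gimap7 read 5.51, 4.66 and 6.36 against 4.66, 4.70 and 5.12. Among 9 regulatory T cell genes, 4 were higher in all 3 lines, beside 10.2% of all features. Izumo1r, the folate receptor 4 gene, was higher by 1 or more in each, at 7.93, 6.78 and 7.21 against 6.02, 5.56 and 6.20.

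NK and cytotoxic genes were mixed. Of 17 measured, 7 were higher in all 3 lines, beside 10.2% of all features, and 2 lower, beside 11.4%, and the median difference was 0.14, or 0.00 with bounds. Ccl5, a chemokine of activated T and NK cells, read 8.22, 8.66 and 8.05 against 5.52, 6.08 and 5.82, and Klrd1, an NK receptor chain, read 7.5, 6.83 and 8.47 against 5.99, 5.19 and 6.40. Nkg7, a granule protein, read 5.22, 5.92 and 6.87 against 4.63, 4.93 and 5.34 (at least 0.58), and Cst7, a cystatin of cytotoxic cells, read 6.64, 5.44 and 6.88 against 5.20, 4.99 and 5.69. These 4 genes were higher in each line, whereas Prf1, Gzmb and Gzma were not. For Nkg7 and Cst7, however, the sides overlapped across lines. WT arrays reached 8.81 for Klrd1 and 7.46 for Nkg7, above every replicate 1 array, but only 6.98 for Ccl5, below each of them. Prf1, the pore-forming protein of killer cells, read 7.52, 7.13 and 8.76 against 8.67, 7.57 and 8.85. Gzmb, a granzyme, read 5.74, 7.04 and 10.38 against 7.13, 8.21 and 9.81, and the highest WT array reached 12.31. Gzma read 7.51, 7.91 and 8.52 against 6.53, 8.23 and 9.97. Prf1 was lower in each line, yet for Prf1, Gzmb and Gzma the sides overlapped. Klrb1c, an NK receptor gene, lay under the negative control median on both sides. Ncr1, another NK receptor gene, read 5.65, 5.34 and 5.27 against 5.25, 5.03 and 5.67, so its sides overlapped.

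Antigen receptor signalling and MHC class II genes were higher in part, and the lines differed. Ptprc, which encodes CD45 and marks all leukocytes, read 13.64, 14.84 and 16.58 against 11.64, 12.36 and 12.71, a difference of 2.78 ± 0.970. WT arrays reached 13.16, below each replicate 1 array. Of 23 antigen receptor signalling genes, 12 were higher in all 3 lines and 1 was lower, beside 10.2% and 11.4% of all features. Their median difference was 0.05, 1.38 and 2.79 in the 3 lines. Prkcq, a protein kinase of T cells, read 9.55, 8.01 and 10.16 against 5.67, 5.98 and 6.75. Dock2, a migration factor of lymphocytes, read 9.91, 10.86 and 11.92 against 8.46, 8.87 and 7.48, and Ikzf1, the Ikaros factor gene, read 9.04, 10.25 and 11.31 against 7.67, 8.16 and 7.47. Rasgrp1, a Ras activator in T cells, read 8.53, 8.98 and 9.91 against 7.49, 7.62 and 5.27, so its large 4T1OE-CTL difference came partly from a low replicate 2 array. Of 10 MHC class II genes 6 were higher in all 3 lines, among them H2-DMb2, a peptide-loading chain, at 13.78, 13.43 and 15.30 against 10.48, 11.73 and 11.50. H2-Ob, a B cell chain that tunes loading, differed by at least 2.02, and H2-Aa, a class II chain that dendritic cells and macrophages also make, overlapped between sides, at 13.42, 15.92 and 16.37 against 11.61, 15.31 and 14.81. In the list of MHC class I and peptide loading genes, 0 of 11 were higher in all 3 lines and 3 were lower, with a median difference of -0.26. MHC genes share sequence, so cross-signal between them is possible and was not tested.

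Dendritic cell, TNF family and sinus macrophage genes differed less as groups. Over all features 10.2% were higher in all 3 lines and 11.4% lower. Of 18 dendritic cell genes 8 were higher in all 3 lines and 0 lower. Ccl22, a chemokine of mature dendritic cells, read 9.39, 9.41 and 9.02 against 6.47, 6.53 and 3.87, with WT arrays from 4.59 to 6.74. Flt3, the growth factor receptor of dendritic cells, lay under the negative control median on both sides, and Itgax, which encodes CD11c, overlapped at 6.81, 8.29 and 6.53 against 6.17, 7.77 and 6.60. In the list of lymphotoxin and TNF family genes, 8 of 19 were higher in all 3 lines. Ltb, the lymphotoxin beta chain that sustains lymphoid stroma, read 6.83, 8.84 and 9.19 against 5.84, 6.06 and 6.23, while Lta, its partner chain, read 6.53, 6.60 and 6.81 against 6.77, 6.89 and 7.75. Of 8 sinus macrophage genes 2 were higher in all 3 lines. Siglec1, which encodes the sinus macrophage lectin CD169, read 6.20, 7.74 and 6.75 against 5.90, 6.51 and 5.28, with WT arrays up to 7.01. Ly6c2, a gene of monocytes and memory T cells that is close in sequence to Ly6c1, read 10.96, 10.03 and 12.57 against 4.56, 7.27 and 9.97. Ly6c1 read 13.03, 11.77 and 14.55 against 6.12, 9.88 and 13.18, and WT arrays reached 11.75 for Ly6c2, so both varied widely among lines and among tumours.

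**Figure D4:**
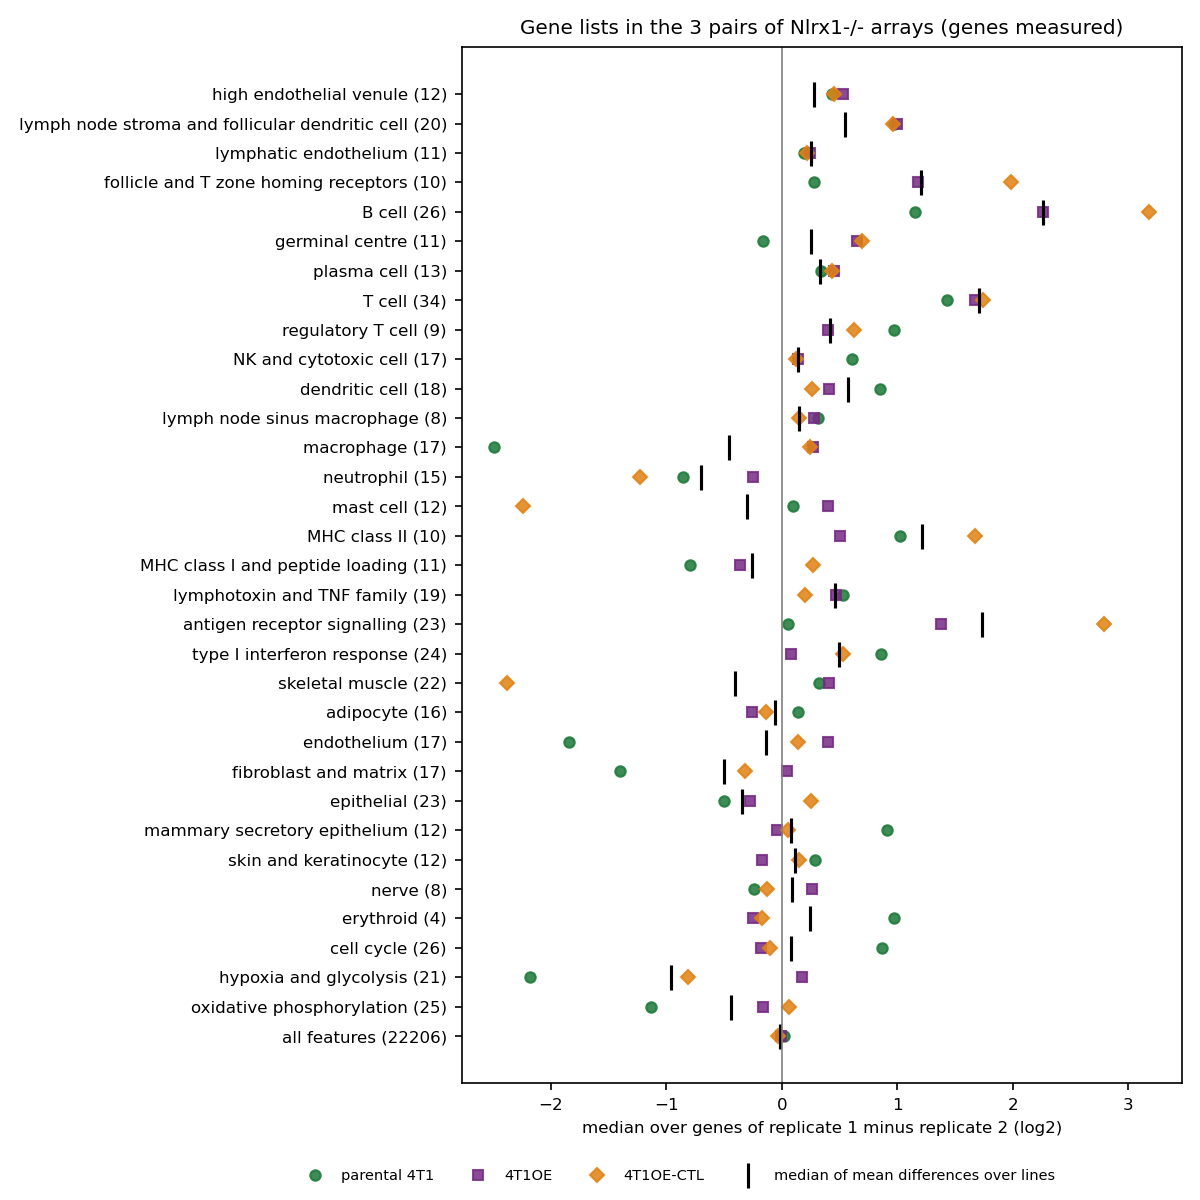
Median over the genes of each list of the difference between replicate 1 and replicate 2 arrays (log2, horizontal axis), by line (points) and of the mean over lines (vertical bars), with the number of genes measured in brackets. B cell and T cell lists lie above 0 in every line, with mean-over-lines medians of 2.26 and 1.71 against -0.02 for all features, while macrophage, endothelium and muscle lists differ in sign among lines.

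The macrophage, endothelial, muscle and mast cell lists differed in direction among lines. Over all features 10.2% were higher in all 3 lines and 11.4% lower. Of 17 macrophage genes 1 was higher in all 3 lines and 3 were lower, with medians of -2.49, 0.27 and 0.24. Lyz2, the lysozyme of myeloid cells, read 16.10, 18.87 and 17.65 against 18.88, 18.60 and 17.51. The negative macrophage value rested on the parental replicate 1 array, and without that pair the median was 0.34. Of 17 endothelial genes 0 had the same direction in all 3 lines, with medians of -1.84, 0.40 and 0.14, and the vessel cadherin gene Cdh5 read 7.35, 11.55 and 10.09 against 11.99, 10.31 and 8.86. Of 22 skeletal muscle genes 0 were higher in all 3 lines, and the list stood 1.89 above the WT median on the 4T1OE-CTL replicate 2 array but at -0.34 to -0.24 on the replicate 1 arrays. The list was high on several arrays of the series, reaching 3.01 on a WT 4T1OE array. Of 17 fibroblast and matrix genes 5 were lower in all 3 lines and 0 higher, with medians of -1.40, 0.04 and -0.32. Mast cell genes had medians of 0.10, 0.40 and -2.24. The adipocyte defining markers Adipoq, Plin1 and Lep lay under the negative control median on both sides, and the adipocyte list spanned 0.06 to 0.20 on the replicate 1 arrays and 0.10 to 0.24 on the replicate 2 arrays. The part of these cell types in the lymphoid result was not tested.

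Hypoxia, glycolysis and oxidative phosphorylation genes were lower mainly in the parental pair. Of 23 epithelial genes 1 was higher in all 3 lines, beside 10.2% of all features, and 2 were lower, beside 11.4%. The epithelial medians were -0.50, -0.28 and 0.25. Krt8, a keratin of 4T1 cells, read 12.11, 14.40 and 13.48 against 14.80, 15.17 and 13.41, whereas Epcam, an epithelial adhesion gene, read 12.57, 7.77 and 6.94 against 13.02, 9.08 and 7.06. Of 21 hypoxia and glycolysis genes 6 were lower in all 3 lines and 0 higher, with medians of -2.18, 0.17 and -0.81, and the median over lines moved from -0.96 to -0.32 without the parental pair. Slc2a1, a glucose transporter, read 11.87, 15.57 and 12.92 against 14.95, 15.40 and 14.79. Of 25 oxidative phosphorylation genes 8 were lower in all 3 lines, with medians of -1.13, -0.16 and 0.06, and -0.44 moved to -0.09 without the parental pair. These negative values were largest on the array whose high and low signals lay closest together, and the part of that compression was not tested. Of 26 cell cycle genes 3 were higher and 1 lower in all 3 lines, with medians of 0.87, -0.18 and -0.10.

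The 3 features that were lower by 1 or more in each line were named genes. Mmp3, stromelysin 1, read 9.08, 12.90 and 9.16 against 10.40, 14.23 and 14.68, a difference of -2.73 ± 2.42. Hp, the haptoglobin gene, read 7.30, 7.97 and 5.96 against 8.44, 10.27 and 10.47, a difference of -2.65 ± 1.71. Arg1, the arginase of myeloid cells, read 12.68, 10.87 and 12.61 against 15.88, 12.09 and 13.80, a difference of -1.87 ± 1.15. Without the parental pair the Arg1 difference was -1.20. WT arrays ran from 10.16 to 15.55 for Mmp3, from 7.29 to 8.54 for Hp and from 11.76 to 14.62 for Arg1. All 3 replicate 2 arrays lay in the WT range for Mmp3, whereas for Hp those of the 4T1OE and 4T1OE-CTL lines lay above it. The replicate 1 arrays of the parental and 4T1OE-CTL lines lay below the WT range for Mmp3. For Hp that of the 4T1OE-CTL line lay below it. For Arg1 the parental replicate 2 array lay above the WT range and the 4T1OE replicate 1 array below it. Of 15 neutrophil genes 6 were below 0 in all 3 lines, beside 11.4% of all features, and 0 above, but 0 were lower by 1 or more in each line. S100a8, a neutrophil calcium-binding protein, read 9.10, 8.72 and 7.43 against 10.29, 9.47 and 12.47, with WT arrays from 8.94 to 14.74.

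**Figure D5:**
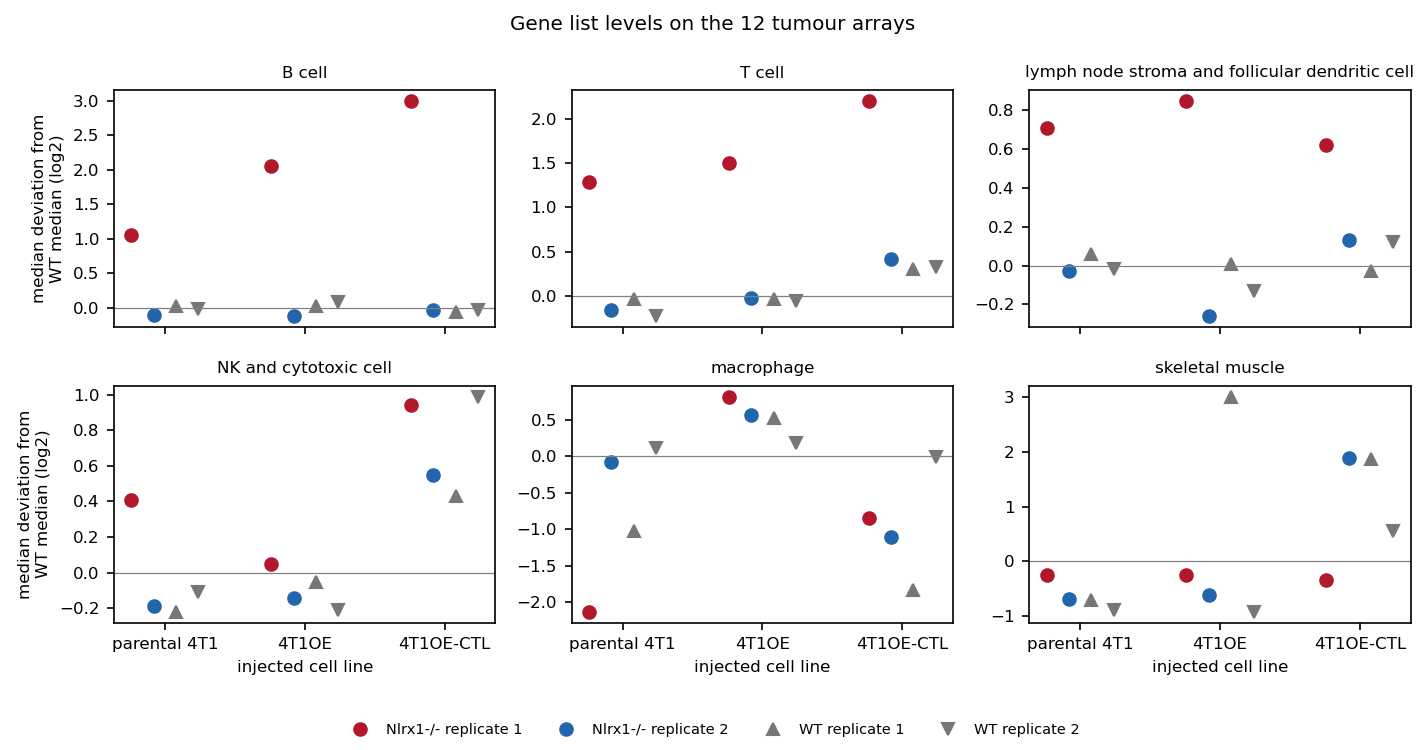
Deviation of gene lists from the median of the WT arrays (log2, vertical axis) on each of the 12 tumour arrays. The B cell list stands at 1.05, 2.06 and 3.00 on the Nlrx1-/- replicate 1 arrays and between -0.12 and 0.08 on the 9 others.

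On these lists the replicate 2 arrays lay nearer to the WT arrays than to the replicate 1 arrays, though partly outside the WT range. The stroma and follicular dendritic cell list, markers included, stood at 0.62 to 0.85 on the replicate 1 arrays, at -0.26 to 0.13 on the replicate 2 arrays and at -0.13 to 0.12 on the WT arrays. The arrays were chosen by these markers, so nothing is read from the levels of this list. Without the 3 markers its median difference between sides was 0.23, or 0.00 with bounds. The T cell list stood at 1.29 to 2.21, at -0.16 to 0.41 and at -0.23 to 0.32 in the same order. For the NK and cytotoxic list the WT 4T1OE-CTL replicate 2 array, at 0.99, was above all 3 replicate 1 arrays, which ran from 0.05 to 0.94. That WT array read 9.52 for Ms4a4b, 8.39 for Cd3g, 8.27 for Cd8a and 7.70 for Themis, near the replicate 1 arrays of the parental and 4T1OE lines. Its T cell list as a whole stood at 0.32, and Lef1 (5.19), Icos (7.14) and Cd4 (7.91) were within the range of the other WT arrays or close to it. It read 4.78 for Glycam1, 3.82 for Cr2 and 3.59 for Cd79a. Some T cell genes, picked here for their high values on that array, were thus high where Glycam1, Cr2 and Cd79a lay under the negative control median, although its Cxcl13, at 7.82, was the highest among the WT arrays.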

How the data were processed

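Gene expression was measured on Clariom S arrays in 12 pools of tumour RNA. The authors deposited a log2 value for each transcript cluster on each array. The Transcriptome Analysis Console is named per the submitters' processing notes; version, normalization and genome build were not given in the sources used here. No further scaling was applied. Of 28846 features, 6640 controls (6546 MG-1, 31 AFFX, 63 ERCC) were removed and 22206 tested, 19572 with 1 gene symbol and 2634 without. For the 55 genes with several features the brightest was used. The number of arrays limits the precision.

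The 6 Nlrx1-/- arrays entered limma 3.58.1 under R 4.3.3 with cell line as covariate (two-sided, empirical Bayes, Benjamini-Hochberg adjusted over every feature), and the code was tested on simulated data. Errors are SDs over the 3 lines. For a gene whose 3 arrays of 1 side lay under their own median of the 5222 MG-1 negative controls, a bound is given: values of the dim side under that median were raised to it before the means were subtracted. The text states no size for a gene dim on both sides or with a bound at or below 0.

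Genes were named by rule: the 4 markers, Nlrx1 and Ptprc, up to 15 in each direction with the largest mean difference among bright genes passing the size rule, the 5 most variable among lines, and in each list up to 6 members with the largest and 3 with the smallest differences plus those opposing the list. Defining markers and contrasts outside the rule were added after inspection: Adipoq, Btla, Cd4, Cd69, Clu, Epcam, Fcer2a, Flt3, Gzma, Icos, Ifi208, Ifi209, Itgax, Lef1, Madcam1, Ms4a1, Pax5, Pla2g2d, Prox1, Rbm38, Serpina1a, Slamf6, Synpo2 and Tnfsf13b. The members and lists were chosen with earlier results of these data known. The alternatives tried are given with their effect in the closing section.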

Additional observations from a re-analysis of the deposited data

Results flagged for a closer look

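The WT 4T1OE-CTL replicate 2 array, which is outside the comparison, carried a raised signal for chemokine genes of the lymph node that no other WT array showed. It read 7.82 for Cxcl13, against at most 6.06 on the other WT arrays. It read 7.42 for Gm13304 (at most 4.91), and 2 features named Gm10591 read 8.38 (at most 5.12) and 6.42 (at most 5.14). The feature named Ccl21b also read 6.42, with the same values as the second of these. The negative control median of the array was 5.27. On the same array Glycam1 read 4.78 and Cr2 read 3.82, both under that median. The Ccl21 features share sequence and count as 1 signal.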

How the results depend on the processing

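The 14 features that passed the limma fit as higher numbered 12 to 273 when each array was left out, and the 0 lower ones 0 to 10. With the line as covariate, leaving out either array of a line removes the whole pair. With all 12 arrays 94 passed as higher, and with values floored at the negative control median, an alternative chosen after seeing the data, 145 higher and 26 lower. Without the covariate and the array advised for exclusion 22 passed as higher. Other settings gave 12 to 16 higher and 0 lower. All 14 passed under all arrays, the dimmest features left out, the floor, the intensity trend, and the 4T1OE or parental pair left out; the others kept 12. By the size rule the 162 higher features numbered 212 to 343 and the 3 lower ones 18 to 269 with an array left out. Leaving out an array drops its pair, so fewer lines are asked and these counts could not fall. At a difference of 0.5 the counts were 362 and 123 and at 2 they were 50 and 0, directions that the threshold itself fixes. With arrays scaled to a common SD 6 were lower. The cause of the other shifts was not tested. Of 448 list medians under alternatives, 386 stayed within the spread, 62 moved and 32 had the opposite sign. The fit is paired by cell line through its covariate. No paired analysis was possible because the replicate numbers are the sides compared and cannot also be a block. Signals near the negative controls limit the size of differences, and 3 pairs of pools limit every count.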

Other observations

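Of the 137 named genes higher by 1 or more in all 3 lines, 77 were in none of the lists, and those given here were picked once their values were known. Several are surface receptors of lymphocytes. Slamf6, a self-binding receptor of lymphocytes, read 7.09, 9.64 and 10.55 against 5.09, 6.65 and 6.94 in the parental, 4T1OE and 4T1OE-CTL lines. Cd69, an early activation marker that also retains lymphocytes in tissue, read 8.27, 8.54 and 10.31 against 5.32, 7.12 and 7.08. Btla, an inhibitory receptor of B and T cells, read 7.32, 7.21 and 7.73 against 5.21, 5.11 and 5.57, a difference of 2.12 ± 0.0296. For Btla and Slamf6 every replicate 1 array lay above every WT array. Pla2g2d, a secreted phospholipase, read 7.66, 8.39 and 8.18 against 4.38, 4.68 and 4.93, a difference of at least 2.65. Serpina1a, a protease inhibitor best known from liver, read 9.70, 10.42 and 9.52 against 5.79, 6.19 and 6.72, with WT arrays up to 7.15.

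Interferon response genes were higher in part. Of 24 type I interferon genes 11 were higher in all 3 lines and 1 was lower, beside 10.2% and 11.4% of all features. By the size rule 0 were higher, beside 0.730% of all features. Usp18, a brake on interferon signalling, read 9.74, 8.38 and 10.09 against 6.87, 7.39 and 7.11, but WT arrays reached 9.52. Ifit3, an interferon-induced antiviral gene, read 8.41, 9.24 and 10.93 against 6.14, 8.34 and 8.82, with WT arrays up to 9.81. For both genes at least 1 replicate 1 array lay within the WT range. Ifi209, an interferon-inducible gene of the same family as Ifi208, read 10.62, 10.02 and 12.83 against 6.77, 8.44 and 9.63, above all WT arrays, which reached 8.71. Family members share sequence, so their signals may not be separate.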
